A study of Mus musculus with 18 samples.

Results

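Replication-dependent histone genes encode the core histones H2A, H2B, H3 and H4, around which DNA is wrapped, and the linker histone H1, which binds the wrapped DNA from outside. They were taken here as the genes whose symbol starts with Hist1h, Hist2h, Hist3h or Hist4h, without the 1 such gene marked as a pseudogene in its symbol. This gave 69 of the 55487 gene identifiers in the count table, of which 6 encode H1, 20 H2A, 18 H2B, 12 H3 and 13 H4. They were measured by RNA sequencing of nuclear and cytoplasmic RNA from BV2 cells, an immortalised mouse microglial line. Per the labels' protocols, cells were lysed with a mild detergent, nuclei were pelleted, and the supernatant gave the cytoplasmic RNA. Cells had been exposed to 10 µM oxyhemoglobin, the oxygen-carrying form of the blood pigment, for 12 or 24 h, or were untreated (0 h). The 6 groups of fraction and time had 3 libraries each, 18 in all, and the deposited count table gives 1 column per group, taken here as the mean of its 3 libraries because every value times 3 is whole to within 0.01. The labels do not say whether the 3 came from separate cultures. No spread between libraries can be had from such means, so no test across libraries was made, and every interval below covers counting error only. Untreated cells kept for 12 or 24 h were not analysed here, so time in culture and oxyhemoglobin cannot be told apart, and 1 cell line was used.

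Most histone mRNAs of this kind carry no poly(A) tail. They end instead just after a short stem-loop, which is bound by the stem-loop binding protein Slbp and cut by a complex that holds the U7 small nuclear RNA. Their transcription and their stability are both tied to DNA synthesis, so that dividing cells make them mainly in S phase and degrade them when S phase ends. Few of the genes have introns, and most lie in clusters in which neighbouring genes share a promoter region. The labels do not say whether RNA was selected by poly(A) tails or depleted of ribosomal RNA, a choice that would decide how much of the tailless mRNA is seen.

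Of the 69 genes, 56 lie on chromosome 13, 10 on chromosome 3, 2 on chromosome 11 and 1 on chromosome 6 (GENCODE M21, GRCm38). The annotation lists 67 as protein coding and 2, Hist1h2aj and Hist1h2al, as pseudogenes. A single exon was annotated for 64, and an intron for Hist1h2bc, Hist1h2be, Hist1h2bp, Hist1h2bq and Hist1h2br. The histone stem-loop, searched on the sense strand after the stop codon by the fixed bases of its consensus (GG at the start, CC at the end, T and A in and beside the loop), was found in the annotated transcript of 46 genes: 4 of H1, 11 of H2A, 10 of H2B, 9 of H3 and 12 of H4. The annotated transcript ended within 30 bases after it in 9 genes and ran further in 37. The following segments are shown because the stem-loop is the signal these mRNAs share. Each is RNA sense, written as DNA from the GRCm38 transcripts, with the stem and loop in capitals and 5 bases on either side.
Hist1h2bj, chromosome 13, + strand: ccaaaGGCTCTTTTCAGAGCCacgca
Hist1h3e, chromosome 13, - strand: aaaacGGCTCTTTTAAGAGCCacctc
Hist2h2ac, chromosome 3, - strand: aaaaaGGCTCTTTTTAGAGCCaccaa
Hist1h3g, chromosome 13, + strand: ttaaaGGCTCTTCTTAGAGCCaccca
Hist1h4n, chromosome 13, - strand: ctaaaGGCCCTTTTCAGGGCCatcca
Hist2h4, chromosome 3, - strand: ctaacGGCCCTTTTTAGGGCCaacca
Hist1h4b, chromosome 13, + strand: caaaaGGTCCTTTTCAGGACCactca
The form printed for Hist1h2bj was the most frequent, in 26 genes of H1, H2A, H2B and H3. The whole form printed for Hist1h4n, stem and loop, was found in 7 genes, all of H4, and no H4 gene held the form of Hist1h2bj. The form of Hist1h4b was shared by Hist1h4j alone.

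Promoters were taken from RefSeq (GRCm38.p6), 250 bases before to 50 after the start of transcription, and 62 of the 69 genes had 1 or more, 63 promoters in all. Motifs were counted on both strands, and partners of a shared promoter region count the same bases. CCAAT was in 85.7% of the histone promoters, against 37.4% of all 32851 promoters of the table. It was present in all promoters of H1, H2A, H2B and H3 and in 3 of 12 of H4. TATAAA was in 55.6% of the histone promoters, against 13.6% of all promoters. The octamer ATTTGCAT was in 7 of 18 H2A and 7 of 17 H2B promoters and in no H1, H3 or H4 promoter, against 1.74% of all promoters. An H2A gene started head to head with an H2B gene in 13 pairs, with 175 to 305 bases between the annotated starts (median 250). The promoter of Hist1h2bj is shown because it spans nearly the whole interval to its partner Hist1h2ag, and both genes passed the 2-fold threshold in nuclear RNA at 12 h, as described below. The sequence is chr13:22042948-22043247, + strand, with CCAAT on either strand in capitals.
Hist1h2bj promoter: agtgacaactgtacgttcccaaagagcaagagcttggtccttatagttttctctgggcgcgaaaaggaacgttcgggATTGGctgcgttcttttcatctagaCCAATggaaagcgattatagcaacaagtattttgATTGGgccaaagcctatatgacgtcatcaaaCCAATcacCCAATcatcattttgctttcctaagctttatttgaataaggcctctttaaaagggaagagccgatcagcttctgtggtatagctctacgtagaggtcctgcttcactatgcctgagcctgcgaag

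Summed over the 3 libraries, the groups held between 14652566 and 22379595 counts. An unnamed gene, ENSMUSG00000118642, took 16.3% to 22.1% of the nuclear counts and at most 0.132% of the cytoplasmic counts, so shares of all counts are not directly comparable between fractions. Of 7 nuclear noncoding RNAs fixed as a check, 4 passed the filter on low counts, and all 4 were at least 2-fold higher in nuclear than in cytoplasmic RNA at every time. Of 10 cytosolic mRNAs fixed as a check, 6 were at least 2-fold lower and 4 at least 2-fold higher in nuclear RNA at every time. The 12 microglial and macrophage markers summed to 1130, 849 and 807 CPM in nuclear and 879, 692 and 599 CPM in cytoplasmic RNA at 0, 12 and 24 h, and their part in the results below was not tested. Of these, Aif1 stayed at or below 1.39 CPM and Tyrobp at or below 2.73 CPM, while Trem2 reached 227 CPM in nuclear RNA at 0 h. Markers of neurons and of astrocytes each summed to at most 1.43 CPM in every group. Markers of oligodendrocytes, endothelium and erythroid cells summed to at most 12.8, 7.02 and 13.8 CPM. Fibroblast markers summed to 5.31 CPM in cytoplasmic RNA at 12 h and to at most 0.477 CPM in every other group.

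Reads were found for 64 of the 69 genes. The 5 genes at 0 in all 6 groups were Hist2h2aa1, Hist2h2aa2, Hist2h2bb, Hist2h3b and Hist2h3c1. Every exonic base of these 5 lies within an exon of another annotated gene, and reads that overlap 2 genes are commonly left uncounted, so their 0 cannot be told apart from uncounted reads. The histone genes are also similar to each other. The median share of 50-base windows of a gene's transcripts that occur in no other annotated gene was 45.0%, and by class it was 98.8% for H1, 60.5% for H4, 53.1% for H2B, 38.0% for H3 and 26.8% for H2A. It was at least 80% in 13 genes and under 20% in 20, among them the 5 genes without reads, each at 0.0%. Windows were sought on both strands, so bases under an overlapping gene also count as not unique. The low shares of H2A and of the 5 genes without reads therefore cannot be read as likeness between histone genes alone. How reads with several matches were treated is not given in the sources used here, so values of single genes with a low unique share are uncertain. Class sums are free of reads assigned to the wrong gene of the class, but would miss any reads that were discarded. Of the 20 H2A genes, 19 are overlapped on the opposite strand by an annotated miRNA gene, 18 of which had no reads.

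Histone mRNAs made up 0.499%, 0.661% and 0.626% of all nuclear counts at 0, 12 and 24 h, and 2.18%, 1.89% and 2.05% of all cytoplasmic counts. The levels below are CPM, the counts a gene takes out of 1000000, with each group's total corrected by the TMM method (a trimmed mean of log ratios between groups), set within the nuclear groups and within the cytoplasmic groups separately. On this scale the 69 genes summed to 4432, 6815 and 6836 CPM in nuclear RNA and to 22057, 19528 and 19614 CPM in cytoplasmic RNA at 0, 12 and 24 h. H4 contributed 24.0%, 26.7% and 28.4% of the nuclear histone counts and 29.6%, 33.2% and 33.9% of the cytoplasmic histone counts. H1 contributed 24.9%, 22.6% and 23.0% of the nuclear and 19.7%, 17.0% and 17.7% of the cytoplasmic histone counts. Both fractions thus held a larger share of H4 and a smaller share of H1 at 12 and 24 h than at 0 h. Per length, on the deposited TPM scale, the highest levels in cytoplasmic RNA at 0 h were 6250 TPM for Hist1h4n, 5640 TPM for Hist1h2ak and 5340 TPM for Hist1h3c. These TPM values divide by the summed length of a gene's annotated transcripts, so genes with a long annotated end such as Hist1h1d (7425 bases) have low TPM for their counts.

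**Figure D1:**
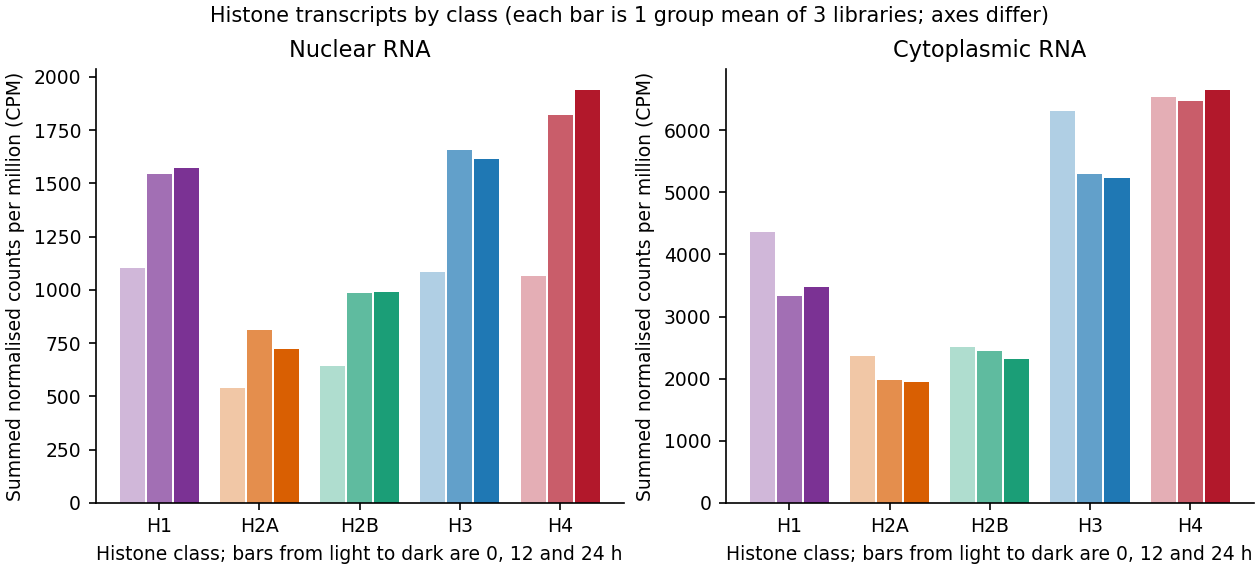
Summed TMM-normalised CPM of the histone genes of each class in nuclear RNA (left) and cytoplasmic RNA (right), with bars from light to dark for 0, 12 and 24 h; each bar is the mean of 3 libraries without a measure of spread, and the 2 vertical axes differ. On this scale every class was higher in nuclear RNA at 12 and 24 h than at 0 h, while in cytoplasmic RNA H1, H2A and H3 were lower and H4 lay between 6474 and 6649 CPM; with summed TPM the nuclear sums of H1, H2A and H3 at 24 h were not higher than at 0 h, and all cytoplasmic sums at 12 h were lower.

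Histone transcripts were far less abundant in nuclear than in cytoplasmic RNA at each time. For this comparison all 6 groups were scaled together, so its ratios are not those of the CPM levels, which were scaled within a fraction, and a gene was called when its ratio reached 2-fold in either direction with a 95% counting interval of the log2 ratio that left out 0. At 0 h, 54 of the 59 histone genes that passed the filter on low counts were called lower in nuclear RNA and 2 higher, beside 32.7% of all genes lower and 47.5% higher, 80.2% in all. At 12 h 51 of 59 were lower and 3 higher, beside 29.3% and 46.4% of all genes, 75.7% in all. At 24 h 53 of 59 were lower and 2 higher, beside 28.9% and 45.8% of all genes, 74.7% in all. The filter could be passed in any of the 6 groups, so a gene could enter through 1 fraction alone. Hist1h1a and Hist1h1t did so through nuclear RNA, and Hist1h2aj and Hist1h2ba through cytoplasmic RNA. Each had under 10 mean counts in the other fraction at every time, so their calls are a description. The median log2 ratio of the histone genes was -3.67, -2.62 and -2.70 at 0, 12 and 24 h, against 0.78, 0.81 and 0.74 over all genes. The summed histone counts had nuclear over cytoplasmic log2 ratios of -3.54, -2.61 and -2.67, which are 11.6-fold, 6.12-fold and 6.37-fold lower levels in nuclear RNA. With scaling by total counts alone, the ratios of the sums were -2.12, -1.52 and -1.71, so the size of the difference depends on the scaling while its direction does not. The higher genes were 59.2%, 61.3% and 61.3% of all genes called at 0, 12 and 24 h, but 78.9%, 80.3% and 78.9% with total counts. The ratio was most even in H2B and H1 at 0 h, with -3.19 and -3.20 for the class sums, and most uneven in H4 and H3, with -3.84 and -3.76.

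Among genes with at least 10 counts in both fractions, the most nuclear was Hist1h2be, an H2B gene whose annotated transcripts include an intron. It had 31.6, 23.3 and 31.0 CPM in nuclear RNA and 5.03, 6.0 and 5.13 CPM in cytoplasmic RNA at 0, 12 and 24 h. Its nuclear over cytoplasmic log2 ratios were 1.43, 0.87 and 1.44, called higher at 0 and 24 h. It is annotated over chr13:23583670-23621124 and shares 496 exonic bases with Hist1h1e. Hist1h2ac, an H2A gene at chr13:23681467-23683948, came next at 0 h with a log2 ratio of -0.59, but had -1.36 at 12 h and -1.21 at 24 h, called lower, below several other genes. Hist1h2ad had -1.04, -0.29 and -0.80 at 0, 12 and 24 h. Hist2h2be, with 64.4, 90.2 and 105 CPM in nuclear and 65.1, 53.2 and 71.4 CPM in cytoplasmic RNA, had -1.24 at 0 h, called lower, -0.33 at 12 h and -0.59 at 24 h. At the other end, Hist1h2ai had -4.27 at 0 h, Hist1h4h -4.04 and Hist1h3b -4.00. Outside the count limit, Hist1h1t, the testis H1, had mean counts of 13 in nuclear and 0.667 in cytoplasmic RNA at 0 h, a log2 ratio of 3.48 (95% counting interval 1.53 to 6.58).

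**Figure D2:**
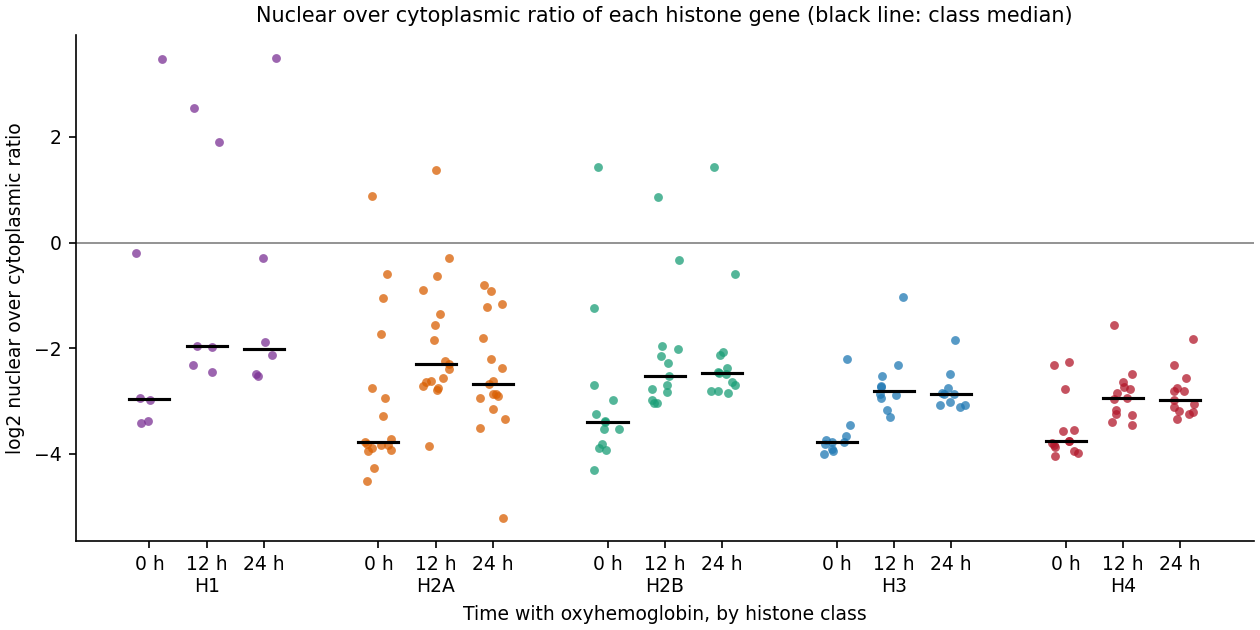
Log2 ratio of nuclear over cytoplasmic RNA for each histone gene that passed the filter (points), by class and by time with oxyhemoglobin, with all 6 groups scaled together; black lines are class medians and values under 0 are lower in nuclear RNA. Medians of the classes were between -3.78 and -2.96 at 0 h, between -2.94 and -1.96 at 12 h and between -2.97 and -2.00 at 24 h.

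In nuclear RNA, histone genes were higher at 12 and 24 h than at 0 h in nearly every case, mostly by less than 2-fold. In bulk RNA, more cells that hold a transcript and more of it per cell cannot be told apart. The summed counts were 1.54-fold higher at 12 h than at 0 h (log2 0.62, 95% counting interval 0.61 to 0.63) and 1.54-fold higher at 24 h (log2 0.63, 0.61 to 0.64). At 24 h the sum differed from 12 h by 0.00 on the log2 scale (-0.01 to 0.02). Of 57 genes compared at 12 h, 53 were above and 4 below 0, with a median of 0.62 against 0.00 over all 17295 genes. Of the 57, 8 were called higher and 0 lower, beside 7.92% of all genes called higher and 6.64% called lower, 14.6% in all. At 24 h 51 of 57 were above 0, with a median of 0.64 against -0.02 over all genes, and 7 were called higher and 0 lower, beside 7.88% and 5.75% of all genes, 13.6% in all. Between 12 and 24 h no histone gene was called, beside 1.83% of all genes higher and 1.19% lower at 24 h, 3.02% in all. Of all genes called, 54.4% at 12 h and 57.8% at 24 h over 0 h were higher, but 31.9% and 27.5% with total counts. The direction of the histone sum at 12 h was the same with total counts (0.40) and summed TPM (0.36). At 24 h the 2 scalings gave 0.33 and 0.06, and with summed TPM the sums of H1, H2A and H3 were -0.09, -0.09 and -0.03.

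The 8 genes called higher in nuclear RNA at 12 h were 6 of H2A, 1 of H2B and 1 of H4. All 8 had a unique share of windows under 80%, and of the 13 genes at or above that share 0 were called, with a median of 0.49. Hist1h2ac is the only H2A gene among the 13. Windows under an overlapping gene count against the share, most in short transcripts such as those of H2A. This contrast therefore does not show whether reads were assigned to the wrong gene. The H2A gene Hist2h2ac, at chr3:96220361-96220880, had 129, 288 and 230 CPM in nuclear RNA at 0, 12 and 24 h, and a log2 ratio of 1.16 at 12 h over 0 h (1.08 to 1.23). The H2B gene Hist1h2bj, at chr13:22043214-22043676, had 75.8, 156 and 150 CPM, a log2 ratio of 1.05 (0.95 to 1.15). Both genes were well counted, with at least 417 mean counts in each nuclear group. Hist1h2ad, Hist1h2ag, Hist1h2ah and Hist1h2ap had log2 ratios of 1.17, 1.12, 1.32 and 1.28 at 12 h over 0 h, on 31.3 to 183 mean counts. Hist2h2ab and Hist1h4b had 1.68 each, on mean counts of 19.0 against 6.33 and of 14.0 against 4.67. Both were under the filter of 10 counts at 0 h and entered only through the groups in which they were high, so they had to differ, and 6 of the calls at 12 h and 5 at 24 h stand without them. At 24 h over 0 h, 4 of the 7 called genes were of H4: Hist1h4b with 1.85, Hist1h4h with 1.11, Hist1h4n with 1.06 and Hist1h4i with 1.05. The others were Hist2h2ab with 1.13, Hist1h2bh with 1.08 and Hist1h2ah with 1.02. Below 0 at 12 h stood Hist1h2ac with -0.70, Hist1h1t with -0.60, Hist1h2be with -0.43 and the pseudogene Hist1h2al with -0.39, none of them called.

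**Figure D3:**
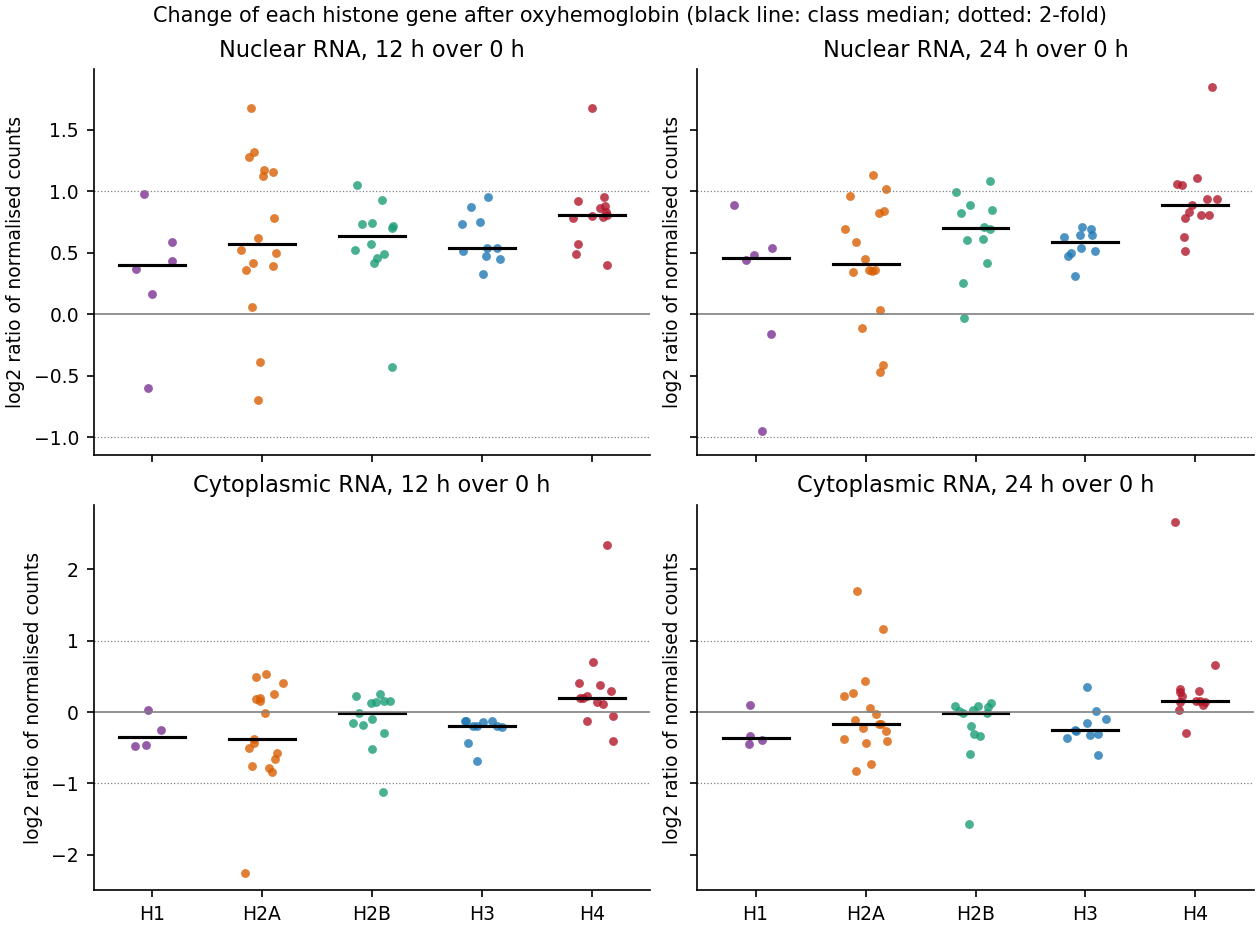
Log2 ratio over 0 h of each histone gene that passed the filter (points), by class, at 12 h (left) and 24 h (right) in nuclear RNA (top) and cytoplasmic RNA (bottom); black lines are class medians, dotted lines mark 2-fold, and the rows have different vertical scales. Nuclear medians lay between 0.40 and 0.89 for every class, and cytoplasmic medians between -0.37 and 0.20.

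In cytoplasmic RNA few histone genes reached 2-fold, and none of the 5 class sums did at 12 or 24 h over 0 h on the TMM scale. The summed counts were 1.13-fold lower at 12 h than at 0 h (log2 -0.18, 95% counting interval -0.18 to -0.17) and 1.12-fold lower at 24 h (log2 -0.17, -0.18 to -0.16). Of 57 genes compared at 12 h, 24 were above and 33 below 0, with a median of -0.12 against -0.04 over all 11751 genes. Only Hist1h4b was called higher, and Hist1h2aj and Hist1h2ba were called lower, beside 11.7% of all genes higher and 8.99% lower, 20.6% in all. At 24 h 3 were called higher (Hist1h4b, Hist1h2aj and Hist1h2al) and 1 lower (Hist1h2ba), beside 10.4% and 6.72% of all genes, 17.1% in all. At 24 h over 12 h, Hist1h2aj and Hist1h2al were called higher, beside 2.9% of all genes, and 0 histone genes lower, beside 1.89% (4.79% of all genes in either direction). These shares were below those over all genes at 12 and 24 h over 0 h. Hist1h2aj and Hist1h2ba at 12 h, and Hist1h2al and Hist1h2ba at 24 h, passed the filter of 10 counts only through the group in which they were the higher, as did both genes called at 24 h over 12 h. Their counts are therefore a description, and Hist1h4b and, at 24 h, Hist1h2aj are the calls that do not depend on this. With summed TPM the log2 ratios of the whole sum were -0.85 at 12 h and -0.65 at 24 h over 0 h. The higher genes were 56.5% and 60.7% of all genes called at 12 and 24 h over 0 h, but 15.5% and 21.6% with log2(TPM + 1). The class sums at 12 h over 0 h, on the TMM scale, had log2 ratios of -0.39 for H1, -0.25 for H2A, -0.03 for H2B, -0.25 for H3 and -0.01 for H4. With summed TPM they were -1.10, -1.02, -0.79, -0.97 and -0.61, so every class was then lower. All 10 H3 genes compared were below 0 at 12 h on both scales. Of 13 H4 genes, 10 were above 0 at 12 h on the TMM scale, but 12 of 13 were lower by TPM, all but Hist1h4b. At 24 h 12 of 13 H4 genes were above 0 on the TMM scale and 11 of 13 were lower by TPM, and the H4 sum of 0.02 became -0.39 with summed TPM.

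The nuclear over cytoplasmic ratio was therefore higher at 12 and 24 h than at 0 h. The shift of this log2 ratio for the summed counts was 0.92 at 12 h (0.91 to 0.94) and 0.87 at 24 h (0.85 to 0.88). For single genes the median shift was 0.91 at 12 h and 0.86 at 24 h, against 0.30 and 0.19 over all genes. At 12 h 24 of 59 genes were called higher, beside 10.8% of all genes, and 0 lower, beside 6.1% (16.9% in all). At 24 h 12 were called higher, beside 8.81% of all genes, and 1 lower, beside 7.68% (16.5% in all). Hist1h1a, Hist1h1t, Hist1h2aj and Hist1h2ba entered this comparison too through 1 fraction alone, so any calls of theirs are a description. With total counts 8 were called higher and 1 lower at 12 h, and 0 higher and 3 lower at 24 h, while the shift of the sum was 0.61 and 0.41. The higher genes were 63.9% and 53.4% of all genes called for the shift at 12 and 24 h, but 29.3% and 10.1% with total counts. Of the 10 cytosolic mRNAs fixed as a check, 2 were called higher and 0 lower for the shift at each time. Their median shift was 0.65 at 12 h, with 7 above and 3 below 0, and 0.51 at 24 h, with 6 above and 4 below. In nuclear RNA at 12 h over 0 h, 7 of the 10 were above 0, with a median of 0.50. There 2 were called higher and 0 lower, beside 7.92% of all genes higher. At 24 h over 0 h the nuclear median was 0.16, with 6 above and 4 below 0. In cytoplasmic RNA at 12 h over 0 h, 6 of the 9 compared were above 0, with a median of 0.26. Their summed level was 2180, 3690 and 3250 CPM in nuclear and 12700, 9960 and 8900 CPM in cytoplasmic RNA at 0, 12 and 24 h. The part of these mRNAs' values in the shift of the histone genes was not tested.

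**Figure D4:**
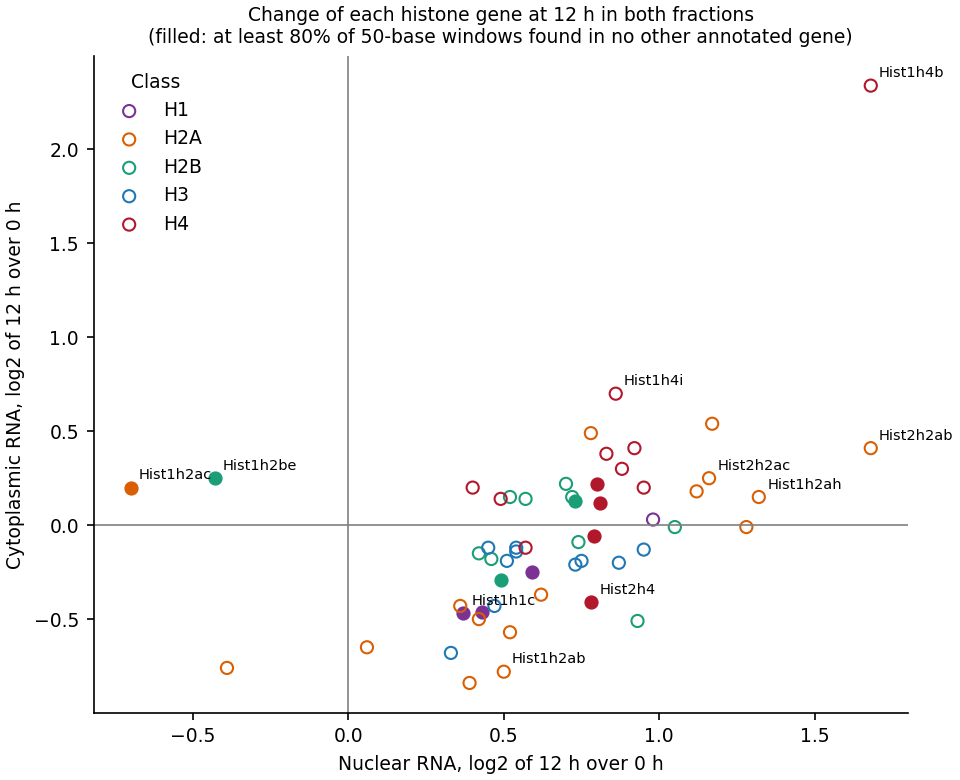
Log2 ratio of 12 h over 0 h in nuclear RNA (horizontal) and in cytoplasmic RNA (vertical) for the 55 histone genes compared in both fractions, coloured by class; filled points have at least 80% of their 50-base windows in no other annotated gene. Of the 55, 30 were above 0 in nuclear and below 0 in cytoplasmic RNA, 22 were above 0 in both, and 3 were below 0 in nuclear RNA.

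The linker histone H1 had the lowest cytoplasmic ratios of the class sums, although the median over genes at 12 h over 0 h was -0.35 for H1 and -0.37 for H2A. Hist1h1c had 460, 595 and 639 CPM in nuclear RNA and 2110, 1520 and 1610 CPM in cytoplasmic RNA at 0, 12 and 24 h. Hist1h1d had 400, 539 and 542 CPM in nuclear RNA and 1350, 981 and 1070 CPM in cytoplasmic RNA. Hist1h1b had 146, 220 and 212 CPM in nuclear RNA and 479, 403 and 352 CPM in cytoplasmic RNA. On the TMM scale all 3 were higher in nuclear and lower in cytoplasmic RNA at both times than at 0 h, with nuclear log2 ratios of 0.37 to 0.59 and cytoplasmic ones of -0.47 to -0.25 at 12 h. Hist1h1e stood apart on this scale, with 430 and 451 CPM in cytoplasmic RNA at 12 and 24 h against 420 CPM at 0 h. Its log2 ratio at 12 h was 0.03 (-0.01 to 0.08). By TPM all 4 H1 genes compared were lower in cytoplasmic RNA at both times, Hist1h1e with 640, 393 and 475 TPM at 0, 12 and 24 h. Hist1h1e had the highest nuclear ratio of H1 at 12 h, 0.98. Its unique share, 68.0%, was the lowest of H1, and it shares 496 exonic bases with Hist1h2be. Hist1h1a was near the limit of detection, at 2.67, 2.98 and 2.39 CPM in nuclear RNA and 1.31, 0.375 and 1.32 CPM in cytoplasmic RNA. H1 genes had the highest median unique share of the classes, with shares of 68.0% to 100.0%.

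H2A, which pairs with H2B in the nucleosome, held 6 of the 8 genes called in nuclear RNA at 12 h. Of these 6, Hist2h2ab passed the filter only through groups in which it was high, with 6.33 mean counts at 0 h. As a class H2A was not above the histone genes as a whole in nuclear RNA at 12 h over 0 h. Its sum had a log2 ratio of 0.60 and its genes a median of 0.57, against 0.62 and 0.62 for all histone genes. Its median unique share, 26.8%, was the lowest of the classes, with windows under an overlapping gene on the opposite strand counted as not unique. H2A had the widest range of ratios at 12 h over 0 h in both fractions. Hist1h2ak had 123, 164 and 168 CPM in nuclear and 753, 531 and 584 CPM in cytoplasmic RNA at 0, 12 and 24 h. Hist1h2ae had 46.3, 66.3 and 58.7 CPM in nuclear and 283, 191 and 234 CPM in cytoplasmic RNA. Hist2h2ac had 540, 641 and 481 CPM in cytoplasmic RNA, so it was above its level at 0 h at 12 h and below it at 24 h. The 17 H2A genes compared in cytoplasmic RNA ranged from -2.25 to 0.54 at 12 h over 0 h and from -0.82 to 1.70 at 24 h over 0 h. The lowest at 12 h and the highest at 24 h were the 2 annotated pseudogenes, both with few counts. Hist1h2aj had mean counts of 26.3, 4.00 and 54.3 in cytoplasmic RNA at 0, 12 and 24 h, and Hist1h2al had 4.67, 2 and 14. Hist1h2aj had a unique share of 6.9%, and its level at 12 h was the lowest and at 24 h the highest of the 3 times. Hist1h2ac ran against its class in nuclear RNA, with 95, 58.6 and 68.7 CPM at 0, 12 and 24 h, and in cytoplasmic RNA it had 61.2, 70.3 and 71.7 CPM. Its unique share was 85.9% and its annotated transcript runs 2010 bases past the stem-loop.

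On the TMM scale most H2B genes were higher in nuclear RNA and near their level at 0 h in cytoplasmic RNA. By TPM all 13 H2B genes compared were lower in cytoplasmic RNA at both times than at 0 h. The nuclear H2B sum was 2254 TPM at 0 h and 2325 TPM at 24 h. Hist1h2bj had 478, 475 and 475 CPM in cytoplasmic RNA at 0, 12 and 24 h, while its nuclear level at 12 and 24 h was above that at 0 h. Hist1h2bc, with an annotated intron, had 103, 169 and 156 CPM in nuclear and 346, 385 and 365 CPM in cytoplasmic RNA. Hist1h2bg had 126, 169 and 150 CPM in nuclear and 353, 319 and 284 CPM in cytoplasmic RNA. On the TMM scale, 11 of the 12 H2B genes compared in nuclear RNA were above 0 at 12 h, and in cytoplasmic RNA 6 of 13 were. Hist1h2bf had 32.2, 61.5 and 42.9 CPM in nuclear and 158, 111 and 105 CPM in cytoplasmic RNA, and its shift of the nuclear over cytoplasmic ratio at 12 h, 1.57, was called higher. Hist1h2bh had 14.5, 24.1 and 30.6 CPM in nuclear RNA and was the 1 gene with a unique share of at least 80% (81.2%) among those called at 24 h. Hist1h2ba, the testis H2B, had 2.04, 0.937 and 0.684 CPM in cytoplasmic RNA, with log2 ratios of -1.12 at 12 h (-2.07 to -0.25) and -1.57 at 24 h (-2.55 to -0.68) over 0 h, on 15.0 mean counts or fewer.

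H3, which pairs with H4, had the narrowest range of nuclear ratios of the 5 classes at both times. Hist1h3e had 202, 340 and 331 CPM in nuclear and 1190, 1040 and 1000 CPM in cytoplasmic RNA at 0, 12 and 24 h. Hist1h3c had 190, 315 and 294 CPM in nuclear and 1140, 987 and 956 CPM in cytoplasmic RNA. Hist1h3h had 111, 162 and 174 CPM in nuclear and 736, 675 and 662 CPM in cytoplasmic RNA. On the TMM scale all 10 H3 genes compared were above 0 in nuclear RNA at both times, between 0.33 and 0.95 at 12 h and between 0.31 and 0.71 at 24 h, and 0 of them was called. In cytoplasmic RNA the 10 lay between -0.68 and -0.12 at 12 h, and at 24 h 2 of 10 were above 0, with Hist2h3c2 highest at 0.35. Hist2h3c2, on chromosome 3, was also the least uneven between fractions, with a nuclear over cytoplasmic log2 ratio of -2.21, -1.02 and -1.85 at 0, 12 and 24 h.

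H4, which pairs with H3, had the largest nuclear class ratios, 0.77 at 12 h and 0.87 at 24 h. Hist2h4, at chr3:96261682-96263311 and with a unique share of 99.0%, had 402, 690 and 688 CPM in nuclear RNA and 2660, 2000 and 2170 CPM in cytoplasmic RNA at 0, 12 and 24 h. Hist1h4n had 153, 289 and 318 CPM in nuclear and 913, 1210 and 1010 CPM in cytoplasmic RNA. Hist1h4d had 130, 225 and 229 CPM in nuclear and 750, 720 and 805 CPM in cytoplasmic RNA. On the TMM scale all 13 H4 genes were above 0 in nuclear RNA at both times, and they split in cytoplasmic RNA, where Hist2h4 was at -0.41 and Hist1h4n at 0.41 at 12 h. Hist1h4i, with 107, 175 and 169 CPM in cytoplasmic RNA, had cytoplasmic log2 ratios of 0.70 at 12 h and 0.66 at 24 h. Hist1h4h had 80.3, 143 and 173 CPM in nuclear and 567, 736 and 712 CPM in cytoplasmic RNA.

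Hist1h4b was called higher in cytoplasmic RNA at both times. It lies at chr13:23757013-23757409, a single exon, and had 0.848, 2.72 and 3.07 CPM in nuclear RNA and 1.81, 9.18 and 11.4 CPM in cytoplasmic RNA at 0, 12 and 24 h. Its cytoplasmic log2 ratio over 0 h was 2.34 at 12 h (1.83 to 2.88) and 2.66 at 24 h (2.17 to 3.18), a 5.07-fold and a 6.32-fold higher level. In nuclear RNA, where it was under the filter at 0 h, the ratios were 1.68 (0.78 to 2.67) and 1.85 (0.96 to 2.83), with wider intervals. The mean counts behind them were 4.67, 14.0 and 15.0 in nuclear and 13.3, 49 and 78 in cytoplasmic RNA, so it was among the least abundant H4 genes. Its nuclear over cytoplasmic ratio had a shift of -0.53 at 12 h (-1.54 to 0.48) and -0.73 at 24 h (-1.72 to 0.26), and both intervals hold 0. Of its 397 exonic bases 223 lie within an antisense gene, 4930558J22Rik, which had mean counts of 7.33 or fewer in every group. Its unique share was 24.1%, with windows under the antisense gene counted as not unique. Reads shared with other H4 genes cannot be told apart from its own.

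The 13 head-to-head H2A and H2B pairs could be compared in nuclear RNA in 8 cases and in cytoplasmic RNA in 9. In nuclear RNA at 12 h both partners were above 0 in 7 of 8 pairs. Of all 57 histone genes compared, 53 were above 0, so a shared sign is not particular to pairs. The partners' log2 ratios differed by a median of 0.17, which was not set against the difference between unpaired histone genes. Hist1h2ag and Hist1h2bj, which share the promoter printed above, had 1.12 and 1.05. Hist1h2ad and Hist1h2bf had 1.17 and 0.93, and Hist1h2ae and Hist1h2bg had 0.52 and 0.42. Partners were further apart in Hist1h2ah and Hist1h2bk, with 1.32 and 0.70, and in Hist2h2ac and Hist2h2be, with 1.16 and 0.49, where only the H2A gene was called. The pair on either side of 0 was Hist1h2ac with -0.70 and its partner Hist1h2bc with 0.72. In cytoplasmic RNA at 12 h the partners had the same sign in 4 of 9 pairs and differed by a median of 0.42, and neither class was lower throughout, since the H2A partner was the lower in 4 of 9.

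Genes grouped by their annotated 3' end overlapped in their ratios. In nuclear RNA at 12 h over 0 h, the 9 genes whose transcript ends at the stem-loop had a median of 0.93 (0.50 to 1.68). The 32 compared genes whose transcript runs past it had a median of 0.68 (-0.70 to 1.17), and the 16 with no stem-loop in the annotated transcript 0.51 (-0.39 to 1.68). At 24 h over 0 h the medians were 0.69, 0.66 and 0.60, closer to each other than at 12 h. In cytoplasmic RNA at 12 h over 0 h they were 0.14, -0.06 and -0.25. The grouping rests on annotation and does not show which ends were used.

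Other genes of the histone and S-phase programme had median ratios closer to 0 than the histone genes in nuclear RNA. Of 10 compared histone variants outside the clusters, most of which have polyadenylated mRNAs that do not depend on S phase, 0 were called higher and 1 lower in nuclear RNA at 12 h over 0 h, with a median of 0.12. H2afv fell to 5.64 CPM at 12 h, against 13.7 CPM at 0 h, a log2 ratio of -1.28. H2afz, at 0.89, and H2afx, at 0.82, had the highest ratios of this list and had nuclear over cytoplasmic log2 ratios of -4.47 and -3.41 at 0 h. H2afx is known to make a stem-loop mRNA in S phase besides a polyadenylated one, so it is not independent of replication. Of 14 compared genes for histone transcription and 3' end formation, 0 were called in nuclear RNA at either time, with medians of 0.14 and 0.17. Slbp, which binds the stem-loop, had 51.2, 30.9 and 27.3 CPM in nuclear RNA (-0.73 at 12 h and -0.91 at 24 h over 0 h). Npat, the coactivator of histone transcription, had 181, 206 and 201 CPM. Lsm11, a protein of the U7 particle, fell in cytoplasmic RNA to 33.7 CPM at 12 h, against 73.1 CPM at 0 h, a log2 ratio of -1.12. Of 11 compared genes for histone mRNA decay 0 were called in nuclear RNA at 12 or 24 h over 0 h, with medians of 0.10 and -0.09.

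Of 20 histone chaperones, which carry histones to DNA, 2 were called higher in nuclear RNA at 12 h and 1 at 24 h over 0 h, and 0 lower, with medians of 0.22 and 0.02. Asf1b, a chaperone of H3 and H4, rose to 49.2 CPM at 12 h and 59.5 CPM at 24 h, against 23.9 CPM at 0 h (1.04 and 1.32). Nasp, which binds H1 and H3, rose in cytoplasmic RNA, with log2 ratios of 1.43 at 12 h and 1.23 at 24 h. Of 44 compared genes for DNA replication and S phase, 3 were called higher and 0 lower in nuclear RNA at each time over 0 h, with medians of 0.01 at 12 h and 0.20 at 24 h. Rrm2, a subunit of ribonucleotide reductase, rose to 74.0 and 68.4 CPM at 12 and 24 h, against 28.6 CPM at 0 h (1.37 and 1.26). Ccne1, cyclin E, rose to 31.3 and 39.3 CPM, against 13.6 CPM at 0 h (1.20 and 1.53). Of 25 genes for mitosis 1 was called higher and 0 lower in nuclear RNA at each time, with medians of -0.17 at 12 h and 0.11 at 24 h. Of these called shares, only that of the chaperones at 12 h, 2 of 20, lay above the 7.92% over all genes. At 24 h each list lay below the 7.88% over all genes. The medians of the lists stay below the 0.62 and 0.64 of the histone genes. Outside these lists, the 10 cytosolic mRNAs fixed as a check had nuclear medians of 0.50 at 12 h and 0.16 at 24 h over 0 h. A nuclear rise at 12 h was thus not particular to the histone genes. Medians of the nuclear over cytoplasmic ratio at 0 h were -1.89 for the variants, -0.97 for DNA replication and -1.06 for mitosis. They were -2.62 for the cytosolic mRNAs and -3.67 for the histone genes.

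For the correlations that follow, and for their limit of 20 CPM, all 6 groups were scaled together, unlike the CPM levels printed here. Over the 6 groups, the genes whose log2 CPM ran most like that of the summed histone genes were Jpt1, Yy1, Cox15, Ska3 and Pdha1. Their Pearson r was 0.9998 to 0.9999, among 5556 genes with a mean of at least 20 CPM. An r above 0.99 was reached by 1189 of the 5556, so a high r is not particular to these genes. The difference between fractions enters every r, and its part was not tested. Each of the named genes was also higher in nuclear and lower in cytoplasmic RNA at 12 and 24 h than at 0 h. Yy1, for example, had 282, 403 and 412 CPM in nuclear and 1050, 957 and 918 CPM in cytoplasmic RNA at 0, 12 and 24 h. Among the histone genes, those with the lowest r with the sum were Hist1h2be with -0.98, and Hist1h2ad, Hist1h4b, Hist1h2ac and Hist2h2be with 0.758, 0.818, 0.867 and 0.879.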

How the data were processed

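RNA was measured in 6 groups of 3 libraries, grouped by the titles. The submitters' processing notes name HISAT2 2.2.0, featureCounts, DESeq2 and the build GRCm38. Not given in the sources used here are the annotation release, the strand setting and the treatment of reads with several matches. The deposited count table holds 6 columns of estimated counts, each taken as the authors' mean over 3 libraries because every value times 3 is whole to within 0.01. The TPM values are the authors' and were deposited beside the counts, 1 per group. The planned count tests were replaced by comparisons of size, since each group has 1 value; the design had foreseen this. No per-sample column was left unused (0).

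Reads summed over 3 libraries were scaled by TMM (edgeR 4.0.16, R 4.3.3; 30% of log ratios and 5% of mean values trimmed), within the nuclear groups, within the cytoplasmic groups, and over all 6 for nuclear over cytoplasmic ratios. A gene was compared if, in 1 or more groups of the set, its CPM was at least that of 10 counts in a library set of median depth. Each log2 ratio has an exact 95% Clopper-Pearson counting interval (a normal approximation for the shift). A gene was called at 2-fold or more with an interval without 0. These calls compare pooled libraries, not conditions with replicate error. Groups at 0 were given a floor of 3 reads per group, which is 0.205, 0.189 and 0.187 CPM in nuclear groups at 0, 12 and 24 h and 0.134, 0.181 and 0.154 CPM in cytoplasmic groups. Reads are not independent molecules, so intervals and floors cover counting error only. The calculation was tested on simulated counts, drawn for all 6 groups from the nuclear profile at 0 h. The simulation held no variation between libraries and no difference in composition between fractions, so it does not check the scaling between fractions.

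Positions, ends and 50-base windows came from GENCODE M21, and 55141 of 55487 identifiers had a name. Software was scipy 1.17.1, pandas 2.3.3, numpy 2.4.6, matplotlib 3.10.9 and Python 3.11.15. Named genes are, for each class, the 3 with the highest mean CPM, genes called in a time comparison with a mean of at least 1 CPM, the 3 highest and 3 lowest nuclear over cytoplasmic ratios, up to 3 of each other list, and the 5 genes most alike; further genes were named after their values were seen. The genes and lists were chosen with earlier results of these data known. Alternatives were total counts, median-of-ratios size factors, log2(TPM + 1), no filter, a filter of 30 counts, and genes with a unique share of at least 80%.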

Additional observations from a re-analysis of the deposited data

Results flagged for a closer look

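The summed histone counts were on opposite sides of their level at 0 h in the 2 fractions, which is why they are listed here; the difference between fractions was not tested across libraries. At 12 h over 0 h the log2 ratio of all histone genes was 0.62 in nuclear and -0.18 in cytoplasmic RNA, and at 24 h it was 0.63 and -0.17. For H1 it was 0.48 in nuclear and -0.39 in cytoplasmic RNA at 12 h, and 0.51 and -0.32 at 24 h. For H2A it was 0.60 in nuclear and -0.25 in cytoplasmic RNA at 12 h, and 0.43 and -0.28 at 24 h. For H2B it was 0.62 in nuclear and -0.03 in cytoplasmic RNA at 12 h, and 0.62 and -0.12 at 24 h. For H3 it was 0.61 in nuclear and -0.25 in cytoplasmic RNA at 12 h, and 0.57 and -0.27 at 24 h. H4 did not follow this at both times, with 0.77 in nuclear and -0.01 in cytoplasmic RNA at 12 h. At 24 h both of its fractions were above 0, with 0.87 and 0.02. With summed TPM the nuclear sums at 24 h over 0 h were on the other side of 0 for H1 (-0.09), H2A (-0.09) and H3 (-0.03).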

How the results depend on the processing

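No paired analysis was possible because each deposited column is a mean over the 3 libraries of a group and carries no replicate number, and for the same reason no library could be left out. The number of histone genes called, in either direction, moved as follows. At 12 h over 0 h in nuclear RNA it was 8, but 4 with total counts, 2 with log2(TPM + 1) and 0 of 13 among genes with a unique share of at least 80%. At 24 h over 0 h in nuclear RNA it was 7, but 2 (1 higher, 1 lower), 3 (1 higher, 2 lower) and 1 under these 3 settings, and at 24 h over 12 h it was 0, but 2 with no filter. At 12 h over 0 h in cytoplasmic RNA it was 3, but 18 with log2(TPM + 1), 17 of them lower, and 0 among unique genes. At 24 h over 0 h in cytoplasmic RNA it was 4, but 2 with a filter of 30 counts and 0 among unique genes, and at 24 h over 12 h it was 2, but 1 and 0. For nuclear over cytoplasmic RNA it was 56, 54 and 55 at 0, 12 and 24 h, and 11 of 13 unique genes at each time. For the shift it was 24 at 12 h, but 9 with total counts, 40 with log2(TPM + 1) and 3 among unique genes, and 13 at 24 h, but 3 (all lower), 4 (3 higher, 1 lower) and 3. Lower counts among unique genes follow in part from the smaller set, which holds no H2A gene but Hist1h2ac. The other 44 of 66 such alternatives stayed within 1.5 times. Total counts moved the median of all genes by -0.22 at 12 h and -0.30 at 24 h over 0 h in nuclear RNA, and by 1.41, 1.10 and 0.96 in nuclear over cytoplasmic RNA at 0, 12 and 24 h. TPM moved it by -0.23 and -0.45 in nuclear and by -0.47 and -0.35 in cytoplasmic RNA at 12 and 24 h over 0 h. The histone median at 24 h over 0 h in nuclear RNA was then 0.02, against 0.64.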
